A study of Homo sapiens with 4 samples.

Results

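The kinesin superfamily genes were read in A549 cells, a human lung adenocarcinoma cell line, 24 h after they had been transfected with small interfering RNA (siRNA). The set was taken by name: every symbol made of KIF, a number and at most a short letter ending of A, B or C, which gave 39 of the 40205 gene symbols in the count table. A further 7 symbols that begin with KIF were not members: the pseudogene KIF4CP, the antisense genes KIF9-AS1 and KIF25-AS1, the adaptor subunit KIFAP3, and KIFC1, KIFC2 and KIFC3. In 2 libraries (Knockdown-670 and Knockdown-732) the siRNA targeted SBF2-AS1, a long non-coding RNA, and in 2 (NC-1 and NC-2) it was a negative control. Every library came from the same line in the same medium, transfected with the same reagent, and the labels do not say what the numbers in the names of the knockdown libraries stand for, nor whether they name different siRNAs. Nothing says that the libraries of a group came from separate cultures, so each p-value measures only how far these libraries spread, which may be a technical spread.

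Kinesins are motor proteins that burn ATP to walk along microtubules or to take microtubule ends apart. A set of them works mainly while a cell divides: they push the spindle poles apart, align the chromosomes and build the midzone and midbody through which the daughter cells separate. Many of their genes are transcribed mainly in the G2 and M phases. Others carry vesicles, mitochondria, endosomes and ciliary cargo in cells whether or not they divide, with light chains and adaptors that choose the cargo. The members were therefore sorted by textbook role into 14 mitotic motors, 15 transport and cortical motors, and 10 that act at the cilium or centriole or have no clear role in either process. These groups, and the gene lists set beside them, were chosen with earlier results of these data known.

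The libraries held 12149767 and 12894529 counts in knockdown and 12701132 and 12938143 in control cells. SBF2-AS1 itself was at 1.27 and 1.42 CPM (counts scaled to the effective size of each library) in knockdown cells, against 4.41 and 5.97 CPM in controls (edgeR log2 fold change -1.94, SE 0.30, adjusted p = 3.19e-05). Of 4 epithelial markers 3 were abundant, KRT8, KRT18 and CDH1, each above 100 CPM in every library (the lowest value was 103 CPM, for CDH1 in NC-1), while EPCAM, the other epithelial marker listed, was at 5.12 to 9.12 CPM. The summed level of 4 endothelial markers stayed between 0.340 and 0.831 CPM. Of 4 immune markers, CD14 was at 8.66 to 12.1 CPM, CD3E was at 0 in all libraries, and PTPRC and LYZ were at 0 in at least 2. Of 16120 genes tested, 3678 (22.8%) fell and 3785 (23.5%) rose at an adjusted p of at most 0.05, so any list has to be read against a background in which 46.3% of genes were called.

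Mitotic kinesins were lower in knockdown cells and most transport kinesins were not. Of the 39 members, 34 had enough counts to be tested. Among these, 20 fell, against 22.8% of all genes, 8 rose, against 23.5%, and 6 were not called. All 13 tested mitotic motors fell, and their median log2 fold change was -1.48, against -0.00239 over all genes. Of the 15 transport motors 4 fell, 8 rose and 3 were not called, with a median of 0.22. Of the 6 tested ciliary and other members 3 fell and 3 were not called, with a median of -0.72. In bulk RNA a smaller number of dividing cells and less kinesin RNA per dividing cell cannot be told apart.

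**Figure D1:**
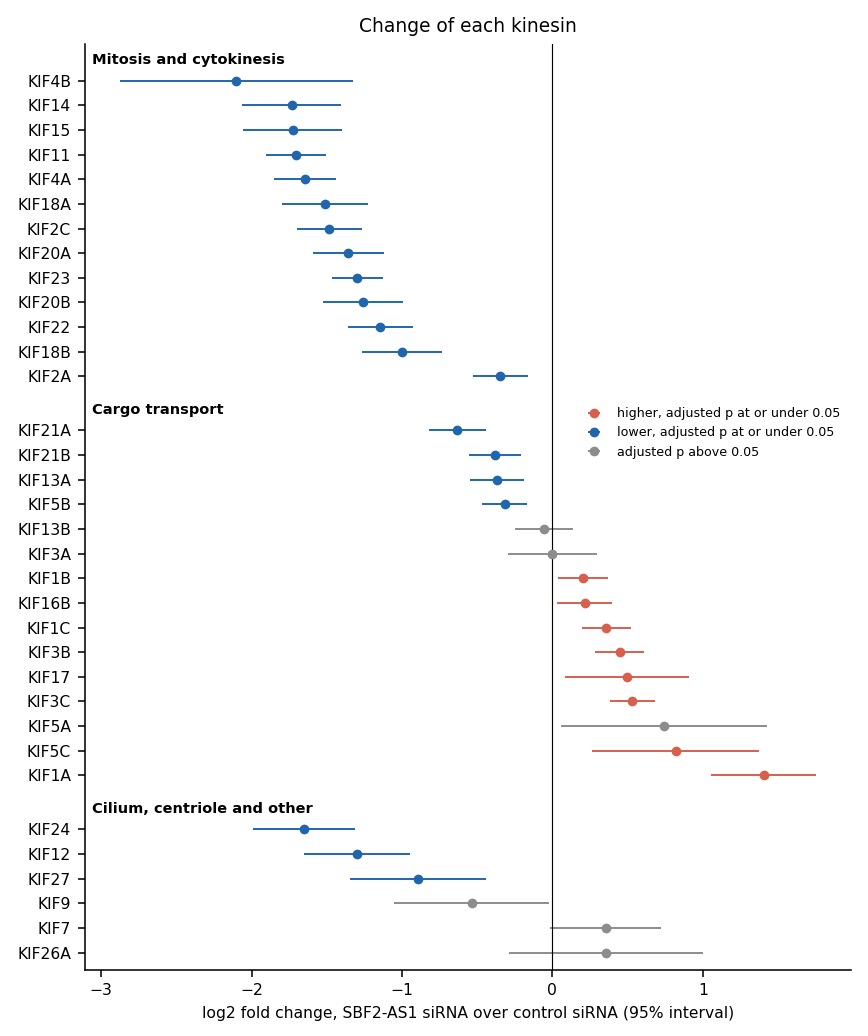
Log2 fold change of each tested kinesin gene (knockdown over control, x axis) with its 95% confidence interval, sorted within the 3 role groups; blue marks genes that fell, red those that rose and grey those not called. All 13 mitotic motors lie left of 0, between -2.10 and -0.34, while the 15 transport motors lie on both sides, between -0.63 and 1.40.

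Changes of at least 2-fold were mainly on the mitotic side. Among members, 13 fell by 2-fold or more, where 4.63% of all genes did; 11 of these were mitotic motors, and the other two were KIF24 and KIF12. KIF1A was the 1 member that rose by 2-fold or more, as did 5.57% of all genes. Both knockdown libraries lay below both control libraries for 21 members (36.2% of all genes) and above both for 10 (36.4% of all genes), and the libraries of the groups overlapped for 3. The 13 mitotic motors were all among the 21.

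The promoters of the mitotic motors were set beside these changes, because genes of the G2 and M phases often share short elements near their starts. The cell cycle genes homology region (CHR), spelled TTTGAA or TTCGAA, is bound by the MuvB core of the DREAM and B-MYB complexes, and CCAAT boxes are bound by NF-Y. RefSeq windows (GRCh38.p14, 250 bases before to 50 after each gene's start) were available for 33 of the 39 members, 42 windows in all. On either strand a CHR stood in 11 of 15 windows of mitotic motors (73.3%), in 1 of 17 windows of transport motors (5.88%) and in 16.4% of all 35116 promoter windows. CCAAT stood in 66.7% of the mitotic windows, 29.4% of the transport windows and 34.6% of all windows, and CHR and CCAAT together in 60%, 5.88% and 6.38%. The 2 overlapping windows of KIF22 both count here; by gene, 10 of 14 mitotic motors (71.4%) had a CHR, against 19.5% of all genes with a window. An E2F element, searched as TTTCCCGC, TTTCGCGC, TTTGCCGC and TTTGGCGC, stood in the window of 1 mitotic motor (KIF15) and in 3.31% of all windows.

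The last 100 bases before the start of 5 mitotic motors with both elements are printed 5′ to 3′ on the gene's own strand, to show how the pairs are arranged; capitals mark the CCAAT box and the CHR, each as read on the gene's strand whichever strand the element lies on. KIF11 lies at chr10:92593030-92593129 (plus strand), KIF4A at chrX:70290004-70290103 (plus strand), KIF23 at chr15:69414249-69414348 (plus strand), KIF22 at chr16:29790651-29790750 (plus strand) and KIF18A at chr11:28108157-28108256 (minus strand).
KIF11: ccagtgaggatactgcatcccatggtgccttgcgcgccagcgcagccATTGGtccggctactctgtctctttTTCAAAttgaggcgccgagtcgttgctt
KIF4A: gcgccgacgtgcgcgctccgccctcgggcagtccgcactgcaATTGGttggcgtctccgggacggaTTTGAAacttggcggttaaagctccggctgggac
KIF23: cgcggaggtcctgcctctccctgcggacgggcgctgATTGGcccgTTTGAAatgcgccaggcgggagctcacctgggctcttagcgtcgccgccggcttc
KIF22: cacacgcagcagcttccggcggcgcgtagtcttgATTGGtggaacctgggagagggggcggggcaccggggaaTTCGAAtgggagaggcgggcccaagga
KIF18A: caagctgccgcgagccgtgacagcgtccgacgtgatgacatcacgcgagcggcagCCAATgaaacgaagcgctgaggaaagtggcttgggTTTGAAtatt
In KIF11 the CCAAT box ends 20 bases before the CHR begins, in KIF4A 19, in KIF18A 30 and in KIF22 34, whereas in KIF23 only 4 bases part them. In KIF14 and KIF4B, whose CHR lies just downstream of the start, the gap was 18 and 19 bases. KIF4B is a close copy of KIF4A, which has the same gap, yet both were counted as separate genes. The gap was wider in KIF18B (29 bases) and widest in KIF20B (117 and 123 bases, to each of its CHR matches), whose CHR also lies downstream of the start. All 10 mitotic genes with a CHR had one that began at most 60 bases from the annotated start.

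The remaining windows show motors without that pair. In KIF15, at chr3:44761694-44761793 (plus strand), capitals mark an E2F match that runs straight into a CHR. KIF20A, at chr5:138179012-138179111 (plus strand), has a pair of CCAAT boxes and no CHR. KIF2C, at chr1:44739737-44739836 (plus strand), and the transport motor KIF3C, at chr2:25982498-25982597 (minus strand), have no match to any of the elements.
KIF15: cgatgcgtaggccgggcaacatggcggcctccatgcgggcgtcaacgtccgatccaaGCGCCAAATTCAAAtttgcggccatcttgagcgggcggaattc
KIF20A: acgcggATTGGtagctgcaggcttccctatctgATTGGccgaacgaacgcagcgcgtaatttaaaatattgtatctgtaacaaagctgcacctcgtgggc
KIF2C: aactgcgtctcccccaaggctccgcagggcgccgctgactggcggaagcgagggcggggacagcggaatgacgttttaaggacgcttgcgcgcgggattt
KIF3C: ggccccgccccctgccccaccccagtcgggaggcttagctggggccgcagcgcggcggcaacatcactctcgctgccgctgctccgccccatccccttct
KIF2C and KIF20A fell without a CHR match in the window, KIF2A and KIF2B had no match of any kind, and of the 12 transport motors with a window KIF5B alone had a CHR. A match describes letters and not a bound site, and no match says only that these letters are not in this window.

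**Figure D2:**
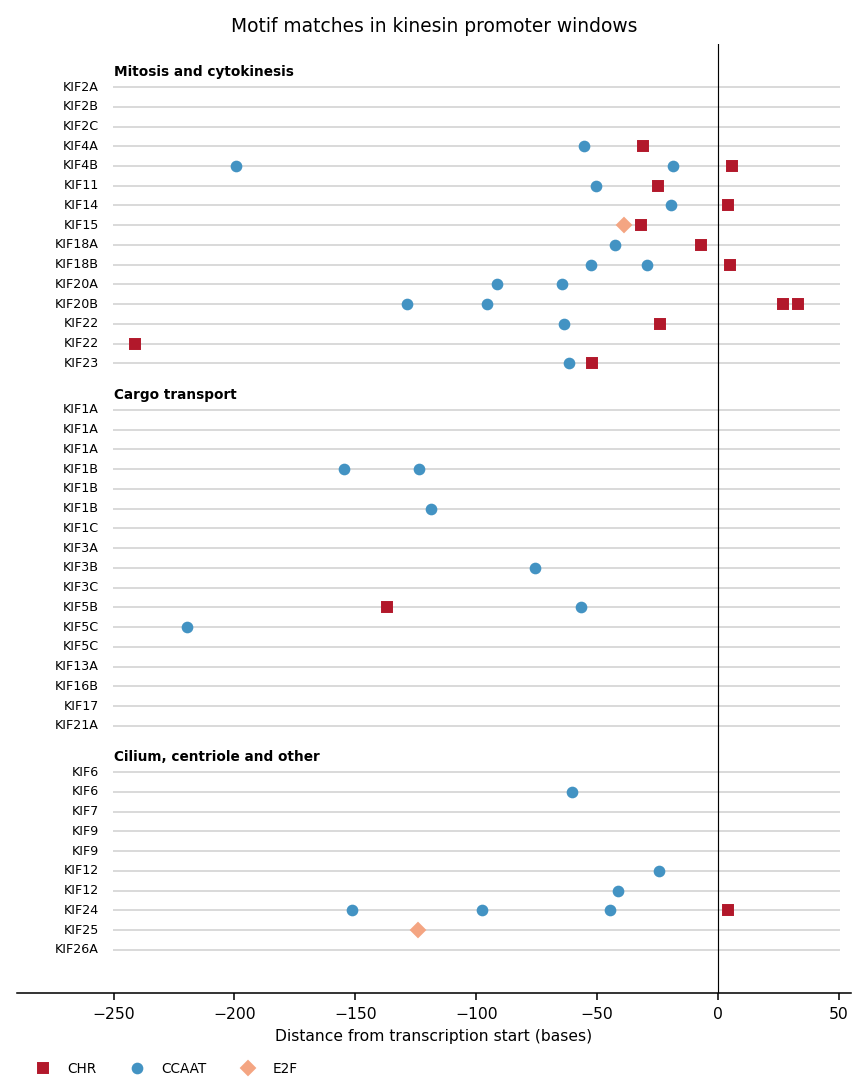
Matches to the CHR (squares), CCAAT (circles) and E2F (diamonds) elements along the 42 promoter windows of kinesin genes, 1 line per window, by distance from the annotated start in bases (x axis). In the mitotic group the CHR squares cluster near the start, with a CCAAT circle before them in 9 of 15 windows, and 1 of 17 transport windows holds a CHR.

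The motors that hold the spindle bipolar fell together. KIF11 (Eg5), the kinesin-5 tetramer that slides antiparallel microtubules apart and the target of anti-mitotic compounds, had 21.4 and 24.8 CPM in knockdown cells, against 76.2 and 74.7 CPM in controls. That is 23.1 ± 2.42 CPM and 75.5 ± 1.05 CPM (SD, n = 2 each), a fall to 30.7% of the control level (log2 fold change -1.71, SE 0.10, edgeR adjusted p = 9.13e-11). KIF15, the kinesin-12 that can keep spindles bipolar when KIF11 is blocked, had 6.71 and 7.25 CPM in knockdown cells and 25.6 and 20.7 CPM in controls. KIF15 thus changed by -1.73 on the log2 scale (SE 0.16, edgeR adjusted p = 5.37e-08), and for both genes the groups were far apart relative to the spread within them. TPX2, which brings Aurora A and KIF15 to the spindle, was at 71.2 and 68.9 CPM in knockdown cells and 243 and 235 CPM in controls (-1.77, edgeR adjusted p = 1.57e-12).

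Motors on chromosome arms and at microtubule ends fell by unequal amounts. KIF4A, a chromokinesin that limits the length of the midzone with PRC1, had 19.5 CPM in both knockdown libraries, against 60.5 and 61.3 CPM in controls (log2 fold change -1.64, SE 0.10, edgeR adjusted p = 1.96e-10). KIF4B is a close copy of KIF4A, so the reads of either are uncertain; it had 15 and 10 counts in knockdown cells and 41 and 75 in controls (-2.10, SE 0.37, edgeR adjusted p = 0.000148). For KIF4B the control libraries stood further apart, as a ratio, than for the 12 other tested mitotic motors, but both were above both knockdown libraries. KIF22 (Kid), which pushes chromosome arms from the poles, had 27.9 and 25.2 CPM in knockdown cells and 54.6 and 62.7 CPM in controls (-1.14, SE 0.10, edgeR adjusted p = 4.55e-08).

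KIF18A, which dampens chromosome movements at kinetochore microtubule ends, had 10.6 and 9.38 CPM in knockdown cells, against 29.8 and 27.3 CPM in controls (log2 fold change -1.51, SE 0.14, edgeR adjusted p = 4.83e-08). KIF18B, which shortens astral microtubules, had 16.1 and 16.6 CPM in knockdown cells and 29.9 and 35.6 CPM in controls (-0.9996, SE 0.13). The 95% confidence intervals were -1.80 to -1.23 for KIF18A and -1.26 to -0.73 for KIF18B. After correction for transcript GC content and length the order was reversed, with KIF18A at -1.14 and KIF18B at -1.31, and the difference between the genes was not tested. Within kinesin-13, the microtubule depolymerases, the members also differed: KIF2C (MCAK), which acts at centromeres, had 18.2 and 19.9 CPM in knockdown cells and 53.9 and 52.8 CPM in controls (-1.48, SE 0.10, edgeR adjusted p = 1.75e-09). KIF2A, which works at spindle poles and also in neurons that no longer divide, had 47.0 and 53.7 CPM in knockdown cells, against 64.9 and 63.0 CPM in controls (-0.34, SE 0.09, 95% confidence interval -0.53 to -0.16, edgeR adjusted p = 0.00357). KIF2A kept 78.7% of its control level, the most of the 13 tested mitotic motors. Its call was lost without Knockdown-670 (-0.26, adjusted p = 0.0549), after the same correction (-0.13, adjusted p = 0.21), and when tested against a 1.2-fold change with glmTreat (adjusted p = 0.166). KIF2A also shares 116 exon bases on the same strand with IPO11, which had 175 and 214 counts in knockdown cells and 318 and 315 in controls; the part of those reads in KIF2A was not tested. KIF2B had 0 counts in every library, which allows a level of up to 0.255 CPM in Knockdown-670 and 0.232 CPM in NC-1 (3 counts per library; counting error only).

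The motors of the midzone and of cytokinesis fell as well. KIF23 (MKLP1), the motor subunit of centralspindlin, had 43.5 and 47.1 CPM in knockdown cells and 110.3 and 112 CPM in controls. Its mean fell to 40.7% of the control level (log2 fold change -1.30, SE 0.08, edgeR adjusted p = 3.03e-10). RACGAP1, its partner in centralspindlin, had 34.6 and 38.0 CPM in knockdown cells, against 88.1 and 73.5 CPM in controls (-1.15, edgeR adjusted p = 2.75e-08). Both subunits of the complex were lower, and RACGAP1 was chosen as an example after its values were seen.

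KIF20A (MKLP2), which carries the chromosomal passenger complex to the midzone, had 17.2 and 15.7 CPM in knockdown cells, against 42.1 and 42.2 CPM in controls (log2 fold change -1.36, SE 0.11, edgeR adjusted p = 1.77e-08). KIF20B (MPHOSPH1), a midbody kinesin of abscission, had 13.1 and 15.7 CPM in knockdown cells and 33.5 and 35.5 CPM in controls (-1.26, SE 0.13). KIF14, which works with citron kinase and PRC1 in cytokinesis, was lower in 1 knockdown library than in the other. It had 9.17 CPM in Knockdown-670 and 13.6 CPM in Knockdown-732, against 35.9 and 40.3 CPM in controls (-1.73, SE 0.15, edgeR adjusted p = 1.54e-07). Set against the control mean, the library Knockdown-670 had a log2 ratio of -2.05 for KIF14 and the library Knockdown-732 one of -1.48, so both were far below the controls. Knockdown-670 was below Knockdown-732 for 8 of the 13 tested mitotic motors, so neither library was lower throughout.

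**Figure D3:**
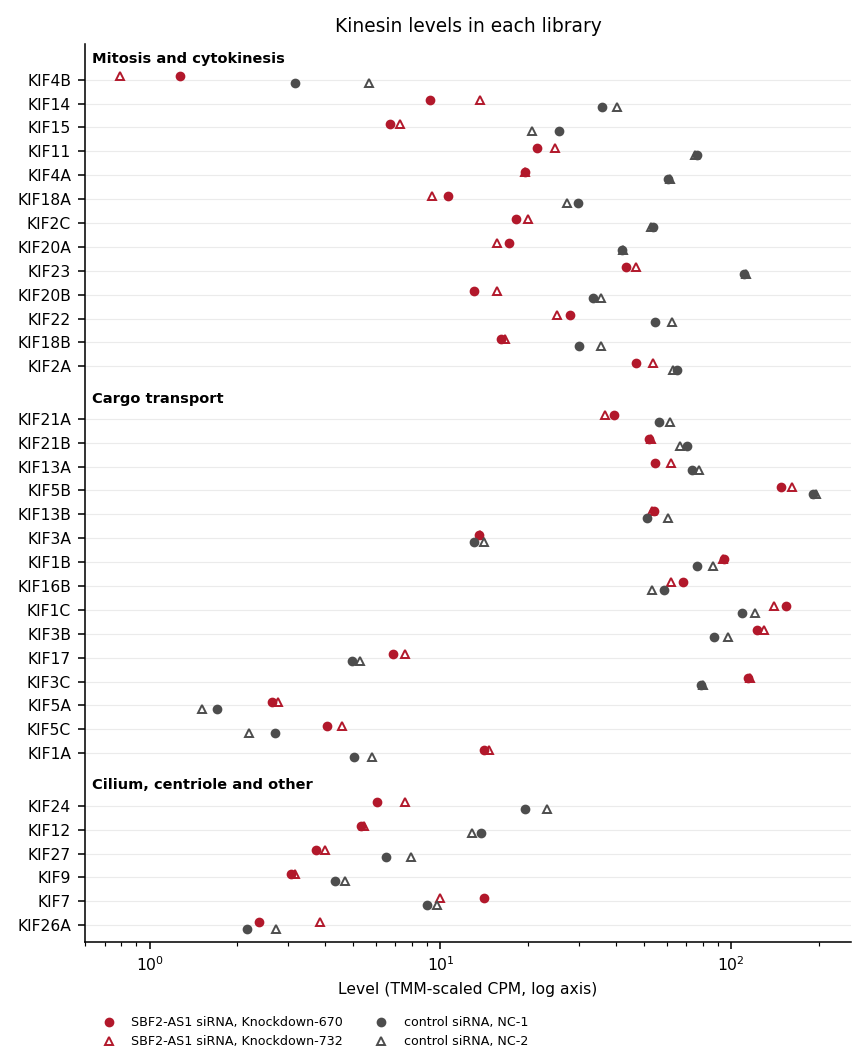
Level of each kinesin gene in the 4 libraries (TMM-scaled CPM on a log x axis) for the 34 tested genes, with knockdown libraries in red above control libraries in grey on each line. For KIF11 the knockdown libraries sit at 21.4 and 24.8 CPM and the controls at 76.2 and 74.7 CPM, while for KIF3A all 4 libraries lie between 13.1 and 14.1 CPM.

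The motors of intracellular transport went in both directions, and by less. Of the 8 that rose, KIF1A, a kinesin-3 known for carrying synaptic vesicle precursors in neurons, stood apart in size: it had 14.1 and 14.7 CPM in knockdown cells, against 5.03 and 5.82 CPM in controls. That is a 2.65-fold rise (log2 fold change 1.40, SE 0.17, 95% confidence interval 1.05 to 1.76, edgeR adjusted p = 1.7e-06), or 0.90 after correction for GC content and length (adjusted p = 4.99e-05). A list of 4 neuron markers did not move as a block beside it: RBFOX3 rose (0.51), SNAP25 fell (-0.35), SYP and MAP2 were not called, and their summed level was 128 and 121 CPM in knockdown cells and 111 and 119 CPM in controls. The other kinesin-3 genes of transport changed less. KIF1C, a carrier of dense-core vesicles and integrins, had 154 and 141 CPM in knockdown cells and 109 and 121 CPM in controls (0.36, SE 0.08, edgeR adjusted p = 0.00085), but -0.01 after the GC and length correction. KIF1B, which moves mitochondria and vesicle precursors, had 94.2 and 93.5 CPM in knockdown cells, against 76.2 and 86.6 CPM in controls (0.20, edgeR adjusted p = 0.043). After the GC and length correction KIF1B was at 0.01 and lost its call. KIF16B, a motor of early endosomes, had 68.2 and 61.9 CPM in knockdown cells, against 58.5 and 53.5 CPM in controls (0.22, edgeR adjusted p = 0.0494). These 3 rises lay close together, and the last of them hardly passed the threshold. KIF13A, which moves recycling endosomes, went the other way, with 54.7 and 61.9 CPM in knockdown cells and 73.4 and 77.2 CPM in controls (-0.37, edgeR adjusted p = 0.00156). KIF13B, a carrier of membrane cargo, was not called (-0.06, 95% confidence interval -0.25 to 0.14), with overlapping groups, although after the GC and length correction it was at -0.43 (adjusted p = 8.15e-05).

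Of the kinesin-2 genes, KIF3B, KIF3C and KIF17 rose and KIF3A was not called. The heterotrimeric motor joins KIF3A to KIF3B or KIF3C and drives transport along the cilium and of membranes in the cytoplasm. KIF3B had 122 and 129.6 CPM in knockdown cells, against 87.0 and 97.6 CPM in controls (log2 fold change 0.45, SE 0.08, edgeR adjusted p = 0.000123). KIF3C had 114 and 116 CPM in knockdown cells and 78.8 and 80.0 CPM in controls (0.53, SE 0.07, edgeR adjusted p = 8.74e-06). Their shared partner KIF3A was at 13.6 CPM in both knockdown libraries and 13.1 and 14.1 CPM in controls (0.00, 95% confidence interval -0.30 to 0.30), and the adaptor subunit KIFAP3 was not called (-0.23, edgeR adjusted p = 0.168). Differences between subunits were not tested. After the GC and length correction KIF3C was at 0.21 (adjusted p = 0.0142), KIF3B at 0.31 (adjusted p = 0.000526) and KIF3A at 0.20 (adjusted p = 0.249), so KIF3A and KIF3C were then nearly level. KIF17, the homodimeric kinesin-2, was low, at 6.88 and 7.56 CPM in knockdown cells and 4.95 and 5.29 CPM in controls (0.50, edgeR adjusted p = 0.0468). With the GC and length correction KIF17 was at 0.12 and lost its call.

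Conventional kinesin (kinesin-1) carries vesicles and organelles with its light chains. Its ubiquitous heavy chain, KIF5B, fell: it had 148 and 162 CPM in knockdown cells, against 190.6 and 196 CPM in controls (log2 fold change -0.32, SE 0.07, edgeR adjusted p = 0.0012), and -0.15 after the GC and length correction (adjusted p = 0.0569). The heavy chain KIF5C, best known from neurons, had 4.08 and 4.57 CPM in knockdown cells, against 2.71 and 2.19 CPM in controls (0.82, SE 0.26, edgeR adjusted p = 0.0164). KIF5A, the other neuronal heavy chain, had 2.63 and 2.76 CPM in knockdown cells, against 1.70 and 1.51 CPM in controls and was not called (0.74, 95% confidence interval 0.06 to 1.43, edgeR adjusted p = 0.0699). Per kilobase of transcript KIF5C was at 0.624 and KIF5A at 0.463 CPM in knockdown cells, far below the 26.4 of KIF5B. The kinesin-4 pair that restrains microtubule growth fell: KIF21A had 39.4 and 36.7 CPM in knockdown cells and 56.6 and 61.4 CPM in controls (-0.63, SE 0.09, edgeR adjusted p = 1.52e-05). KIF21B had 52.1 and 53.1 CPM in knockdown cells, against 70.4 and 66.5 CPM in controls (-0.38, edgeR adjusted p = 0.000919). After the GC and length correction KIF21B was at -0.87 and KIF21A at -0.59.

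The 8 higher calls among transport motors depended on the fit. KIF1A, KIF3B and KIF3C kept their call under all 14 alternatives, and KIF21A was the lower transport motor that did. KIF1C lost its call in 2 of the alternatives, KIF5C in 3 of 13, KIF1B in 7, KIF16B in 8 and KIF17 in 9, those without any single library included. Without NC-2, Knockdown-670 or Knockdown-732 the number that rose was 5, and without NC-1 it was 6.

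Among the ciliary and other members, the lower calls were KIF24, KIF12 and KIF27. KIF24, a kinesin-13 that takes microtubules apart at the mother centriole and restrains cilium assembly, had 6.03 and 7.56 CPM in knockdown cells and 19.6 and 23.3 CPM in controls (log2 fold change -1.65, SE 0.16, edgeR adjusted p = 1.41e-07). Its promoter window is the only one of this group with a CHR and a CCAAT box, 43 bases apart. KIF12 had 5.35 and 5.44 CPM in knockdown cells and 13.8 and 12.8 CPM in controls (-1.30, SE 0.17, edgeR adjusted p = 4.81e-06). KIF27, a ciliary relative of KIF7, had 3.74 and 4.02 CPM in knockdown cells and 6.49 and 7.94 CPM in controls (-0.89, SE 0.21, edgeR adjusted p = 0.0022). KIF9, a kinesin of motile cilia and flagella, had 3.06 and 3.15 CPM in knockdown cells and 4.33 and 4.69 CPM in controls and was not called (-0.54, 95% confidence interval -1.05 to -0.02), but it was called lower after the GC and length correction (-0.65, adjusted p = 0.0366). Its antisense partner KIF9-AS1 had 23 and 32 counts in knockdown cells, against 15 and 9 in controls.

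KIF7, which regulates Hedgehog signalling at the cilium tip, had 14.1 CPM in Knockdown-670 and 9.93 CPM in Knockdown-732, against 8.97 and 9.75 CPM in controls, and was not called (log2 fold change 0.36, 95% confidence interval -0.02 to 0.73). Without Knockdown-732 it was called higher (0.58, edgeR adjusted p = 0.0108), and without Knockdown-670 it was at 0.08, so the value rests on the library Knockdown-670. Its exons share 207 bases with TICRR on the opposite strand, which had 257 and 335 counts in knockdown cells, against 495 and 552 in controls. KIF26A, an atypical kinesin without ATPase activity, had 2.38 and 3.86 CPM in knockdown cells, against 2.16 and 2.72 CPM in controls (0.36, 95% confidence interval -0.29 to 1.005). The 4 untested members of this group were close to 0, and no comparison was made for them. KIF6 had 1 and 0 counts in knockdown cells and 2 and 3 in controls. KIF19 had 0 counts in both knockdown libraries and 0 and 4 in controls. KIF25 and KIF26B each had 4 and 5 counts in knockdown cells, against 2 and 1 (KIF25) and 0 and 4 (KIF26B) in controls. In all, 16 members share exon bases with another annotated gene, 14 of them with one on the opposite strand, and the sources used here do not state whether reads were counted by strand.

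Summed over members, mitotic motors made up a smaller part of the kinesin RNA in knockdown cells than in controls. The mitotic sum was 252 and 269 CPM in knockdown cells, against 620.3 and 634 CPM in controls, or 260.5 ± 12.4 CPM and 627 ± 9.92 CPM (SD, n = 2 each). The transport sum was 943 and 951 CPM in knockdown cells and 879 and 929 CPM in controls. To compare genes, levels were also taken per kilobase of each gene's longest coding transcript. Which transcripts these cells use was not tested. On this scale the mitotic motors made up 31.7% and 32.6% of the members' CPM per kilobase in knockdown cells, against 53.0% and 52.4% in controls. Transport motors made up 64.2% and 63.6% in knockdown cells and 42.3% and 42.8% in controls. These shares leave out 4 kinesins outside the name rule. Those summed to 121 and 118 CPM per kilobase in knockdown cells and 124 and 122 in controls.

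**Figure D4:**
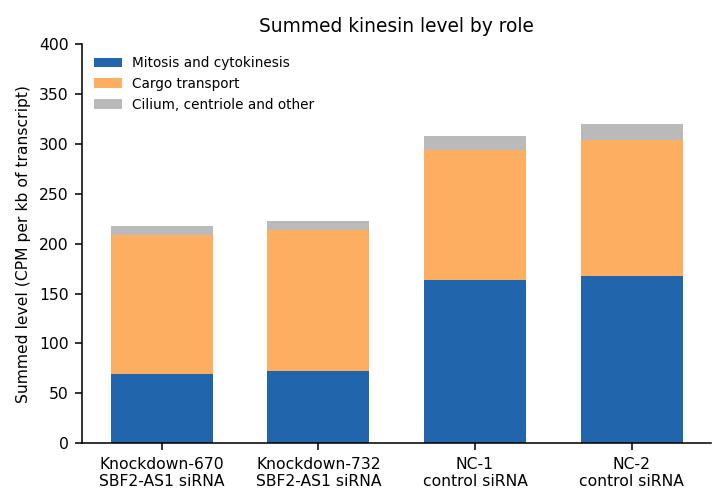
Stacked sums of the levels of the 3 kinesin role groups in each library (CPM per kilobase of transcript, y axis from 0), knockdown libraries left of control libraries. The mitotic sum is 69.0 and 72.5 in knockdown cells and 163 and 167 in controls, while the transport sums are 139.7 and 141 in knockdown cells and 130.1 and 137 in controls.

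The order of the levels also differed between the groups. Per kilobase, KIF5B was the most abundant of the 39 members in both groups, at 26.4 in knockdown cells and 32.9 CPM per kilobase in controls. Kinesins outside the name rule were not ranked. Of these, KIFC3 had more CPM than KIF5B, with means of 342 CPM in knockdown cells and 345 CPM in controls. Behind KIF5B among the members in knockdown cells came KIF3C (21.5), KIF3B (20.6) and KIF1C (18.6), all transport motors. In controls the next were KIF23 (29.9), KIF22 (23.4) and KIF2A (19.0), all mitotic. KIF23 went to place 7 in knockdown cells, against place 2 in controls, and KIF11 to place 16, against place 6. Neighbours such as KIF3C and KIF3B in knockdown cells, or KIF3B and KIF3C in controls, are close to each other on this scale, and their order was not tested.

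Of 4 kinesins outside the name rule, 2 fell, 1 rose and 1 was not called. CENPE, the kinetochore kinesin-7, had 10.0 and 10.6 CPM in knockdown cells and 36.1 and 32.6 CPM in controls (log2 fold change -1.74, edgeR adjusted p = 4.36e-09), and KIFC1, the minus-end motor that focuses spindle poles, fell by 1.05 on the log2 scale. KIFC2 rose (0.60) and KIFC3 was not called (-0.01). Of 18 partners of mitotic kinesins, all fell, against 22.8% of all genes, in a list chosen with earlier results of these data known. The median of the partners was -1.60, and the median over all genes was -0.00239. Besides TPX2, the smallest p-values among them were those of HMMR (-2.46), CCNB1, the cyclin of mitotic entry (-1.77), and PRC1, the midzone bundler to which KIF4A and KIF14 bind (-1.66). PRC1 had 71.4 and 65.2 CPM in knockdown cells, against 229 and 201 CPM in controls.

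The light chains, adaptors and cargo links of transport kinesins leaned upward. Of 21 genes, 10 rose (47.6%), 2 fell (9.52%) and 9 were not called, with a median log2 fold change of 0.35. Over all genes 23.5% rose and 22.8% fell. MAPK8IP3 (JIP3), a scaffold between kinesin-1 and its cargo, had 164 and 177 CPM in knockdown cells, against 47.4 and 49.6 CPM in controls (1.82, edgeR adjusted p = 2.53e-12). KLC2, a kinesin light chain, rose (0.50). KIAA1279, a kinesin-binding protein, fell (-0.34).

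Other parts of the microtubule system gave smaller or mixed changes. Of 13 tubulins 9 fell (69.2%), 1 rose (7.69%) and 3 were not called, with a median log2 fold change of -0.45. TUBA1B, an alpha tubulin, was at 322 and 319 CPM in knockdown cells, against 799 and 713 CPM in controls (-1.24), followed by TUBB4B (-0.55), TUBG1 (-0.52) and TUBA4A (-0.50). TUBB2A rose (0.46). Some of these tubulin genes are near-identical copies of each other, so reads may be split among those. Of 24 tested dynein and dynactin genes, which walk the opposite way along microtubules, 9 fell (37.5%) and 5 rose (20.8%), with a median of -0.12. Over all genes 22.8% fell and 23.5% rose, so the share that rose was near that of all genes. The dynein light intermediate chain DYNC1LI1 (-0.73), NDE1 (-0.77) and DYNLL2 (-0.69) fell, whereas the adaptor BICD2 (0.80), HOOK2 (0.73), DYNLRB1 (0.49), DYNC1H1, the heavy chain (0.32), and DYNLT1 (0.32) rose. The number of dynein and dynactin genes that fell was 4 without NC-1, 5 with DESeq2 and 3 with glmTreat. Of 13 intraflagellar transport genes, the cargo of kinesin-2, 4 fell (IFT74 -1.05, IFT88 -0.81, IFT81 -0.50, IFT122 -0.48) and IFT20 rose (0.33), with a median of -0.09. That is 30.8% lower and 7.69% higher, against 22.8% and 23.5% of all genes.

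**Figure D5:**
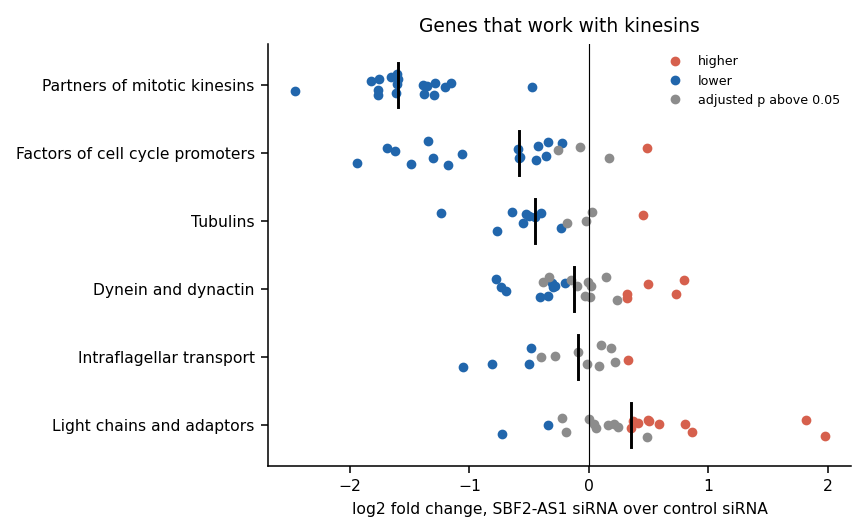
Log2 fold changes (knockdown over control, x axis) of the tested genes of 6 lists of genes that work with kinesins, 1 point per gene, coloured by call, with a bar at the list's median. All 18 partners of mitotic kinesins lie left of 0 with a median of -1.60, and the light chains and adaptors have a median of 0.35.

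Other gene lists were set beside the kinesins, and they differed in direction. Of 20 factors that bind cell-cycle promoters, 16 fell, against 22.8% of all genes. Among these 20, 1 rose (LIN37, 0.49), against 23.5% of all genes, and 3 were not called. The median log2 fold change of the list was -0.58. The smallest p-values belonged to FOXM1 (-1.31), MYBL2, which encodes B-MYB (-1.18), RBL1 (-1.94) and E2F1 (-1.63). All 10 genes of an interferon response list rose, with a median of 3.97, and their summed level was 1669 and 1685 CPM in knockdown cells and 429.6 and 403 CPM in controls; MX1 (4.50), ISG15 (4.44), IFIT1 (4.91) and OAS1 (2.56) had the smallest p-values. Among epithelial markers KRT18 (-0.86), KRT8 (-0.40) and EPCAM (-0.56) fell and CDH1 was not called, with a summed level of 2517 and 2354 CPM in knockdown cells, against 3780 and 3883 CPM in controls. The markers of immune cells (1 of 4 tested, 8.75 and 9.77 CPM in knockdown cells against 12.1 and 9.98 CPM in controls) and fibroblasts (2 of 4 tested, 12.99 and 10.2 CPM against 9.12 and 9.37 CPM in controls) gave no call. Of these lists the part in the kinesin changes was not tested.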

How the data were processed

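RNA-seq of 4 A549 libraries was used, 2 with SBF2-AS1 siRNA and 2 with control siRNA, grouped by the labels' treatment field. The authors deposited raw counts per gene symbol, in whole numbers; the genome build is GRCh37 per the submitters' processing notes. Total RNA was taken with Trizol and sequenced on the Ion Proton, per the labels' protocols. Which aligner, counter, gene models and strand setting made them were not given in the sources used here. The table held 40205 symbols, 0 entries without a gene name and 0 columns of no sample.

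Counts were tested as deposited in R 4.3.3 with edgeR 4.0.16 (filterByExpr, scaling by TMM, then glmQLFit with robust estimation and glmQLFTest) over all 16120 genes kept, and Benjamini-Hochberg adjustment, with a call at an adjusted p of at most 0.05. Every adjusted p in the text is of this kind unless another fit is named. CPM uses the TMM-scaled library size, and 95% intervals and SE come from the fit. Library totals were 12149767 to 12938143 counts. The square root of the common dispersion in edgeR, named the biological coefficient of variation, was 6.64%, though this spread may be technical. The mean chi-square per gene was 3.42 between the knockdown libraries and 3.72 between the controls, and 45.0 to 50.1 between groups, so none of the libraries repeats another. The fit was tested on simulated counts with known changes.

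The members, the role groups and the gene lists were chosen with earlier results of these data known. Every member is accounted for; from each list up to 4 called genes of smallest p and any gene called in the minority direction are named, apart from genes whose results are not reported here. Transcript lengths were those of the longest transcript of each symbol in GENCODE v29, coding transcripts first. These lengths and the promoter windows (RefSeq, GRCh38.p14) were joined by symbol, since the count table holds no coordinates. Both are of another build than that of the authors. Motifs were searched in Python 3.11.15 on both strands.

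Alternatives in scaling and filtering were RLE, upper-quartile and library-size scaling, no filter, and a filter of 5 CPM in 2 libraries. Other fits were DESeq2 1.42.0, limma-voom (limma 3.58.1), a fit without robust estimation, and glmTreat against 1.2-fold. A correction by GC content and length of the transcripts used 14713 genes. In it, the log2 CPM (prior count of 2) of each library was taken as its difference from the gene's mean over all libraries. These differences were regressed on smooth functions of GC content and log2 length. The fitted values then served as offsets in the same edgeR fit and test. The differences include any effect of the knockdown, so the correction also removes a real change that follows GC content or length. Each library was also left out in turn.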

Additional observations from a re-analysis of the deposited data

How the results depend on the processing

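Of 471 values of single members under 14 alternatives, 423 kept their direction and their side of the threshold, 35 lost their call, 3 gained one and 10 changed sign. The calls of 12 mitotic motors held under every alternative in which they were tested; KIF2A was the exception. The number of members that rose, and of transport motors that rose, was 8 in each case. It was 5 with library size only, 4 with DESeq2, 4 with glmTreat against 1.2-fold and 4 with the GC and length correction, and 5 to 6 when single libraries were left out. Transport motors that fell were 1 with glmTreat instead of 4. With glmTreat 2229 genes of the whole table fell and 2451 rose, against 3678 and 3785. Ciliary and other members that rose were 0 to 1 when single libraries were left out, the 1 being KIF7. Members that fell were 19 to 20 and mitotic motors that fell 12 to 13 without single libraries.

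Values were small after a change of sign, but some were larger in the main fit. KIF3A was at -0.0622 with library size only, -0.00186 with no filter, -0.00411 with DESeq2, and between -0.0593 (without NC-1) and 0.0540 (without NC-2) when single libraries were left out, with -0.0128 without Knockdown-732. With the GC and length correction KIF1C was at -0.0104, against 0.36 in the main fit, where it was called higher. KIF7 was then at -0.0666 and KIF26A at -0.20, each against 0.36 in the main fit. Without single libraries KIF26A ranged between -0.0510 and 0.65 and KIF13B between -0.18 and 0.0639. The causes were not tested, beyond fewer libraries in the fits that leave one out. Among the lists, the lone higher calls of TUBB2A and IFT20 were lost without NC-2 and without Knockdown-670, and that of LIN37 without NC-2. All 3 were also lost with DESeq2 and glmTreat, those of TUBB2A and LIN37 with the GC and length correction, and that of IFT20 with library size only; 4 intraflagellar transport genes rose with the GC and length correction. The largest shift of the median over all genes under another scaling was -0.06 (log2), with library size only. No paired analysis was possible because the numbers in the names of the knockdown libraries differ from those of the controls (1 and 2). At 12149767 to 12938143 counts per library, members with a few counts (KIF6, KIF19, KIF25, KIF26B) could not be compared.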
